A study of Rattus norvegicus with 4 samples.

Results

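The 10 genes described here encode the contractile apparatus of smooth muscle or proteins that regulate it, and most are textbook targets of serum response factor (SRF). They are Acta2, Actg2, Tagln, Cnn1, Cnn2, Tpm1, Tpm2, Myl9, Mylk and Des, chosen by symbol. All 10 were found among the 32753 genes of the deposited tables, 1 row each, and 8 of them reached 1 RPKM (a read number scaled to the length of the transcript and the size of the library) in at least 2 of 4 libraries and so entered the test. RNA came from rat embryoid bodies, balls of cells in which pluripotent stem cells begin to specialise, at day 4. WT and Kcnh2-/- rat embryonic stem cells of strain DASD gave 2 libraries each, and values of a pair are given in the order replicate 1, replicate 2. Kcnh2 encodes the voltage-gated potassium channel ERG1. Cells of both genotypes were aggregated in hanging drops with CHIR9902, PD0325901 and the ROCK inhibitor Y27632, plated on laminin with the first pair of agents, and kept in a medium named DM for the last day. The labels do not give the altered part of Kcnh2, whether the Kcnh2-/- cells are 1 clone, or whether replicates came from separate cultures, so p-values measure only the spread between these samples. The comparison asks how loss of Kcnh2 alters these genes at an early stage of differentiation.

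Smooth muscle shortens when the regulatory myosin light chain is phosphorylated by myosin light chain kinase, so that myosin pulls on filaments of smooth muscle actin. Tropomyosins, calponins and transgelin bind those filaments, and desmin forms the intermediate filaments that link them to the rest of the cell. SRF binds the CArG box in the control regions of these genes. Its partner myocardin drives the muscle programme, the myocardin-related factors respond to actin dynamics, and the ternary complex factors of the Elk family drive immediate early genes. Early heart muscle and many mesenchymal cells also express Tagln, Acta2 and Cnn1, so these genes alone do not mark mature smooth muscle.

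Promoter windows show CArG boxes close to the starts of these genes. Sites further away were not sought, so a window without a box does not show that the gene lacks one. The motif has 10 bases, CC, then 6 bases that are each A or T, then GG, and reads the same way on both strands. RefSeq windows (GRCr8), 250 bases before to 50 after each start, were matched for 8 of the 10 genes, all but Tagln and Myl9. An exact CArG box lay in 1 of the 8 (Cnn2), and 3 of the 8 (Acta2, Cnn2 and Tpm1) held 1 or more with 0 or 1 mismatch. Over all 33469 windows the shares were 1.64% and 21.3%, counted by window and not by gene, since some genes have more than 1 window. The stretches below show these sites, with CArG boxes of 0 or 1 mismatch in capitals, beside those of Srf itself and of the non-muscle actin gene Actg1. The stretches are Acta2 chr1:241172558-241172657 (minus strand, -154 to -55 from the start), Tpm1 chr8:76543441-76543630 (minus strand, -215 to -26), Cnn2 chr7:10370354-10370403 (minus strand, -91 to -42), Srf chr9:21923975-21924067 (plus strand, -101 to -9) and Actg1 chr10:106121012-106121061 (minus strand, -110 to -61).
Acta2: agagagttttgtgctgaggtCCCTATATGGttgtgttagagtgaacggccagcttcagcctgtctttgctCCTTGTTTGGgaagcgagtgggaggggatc
Tpm1: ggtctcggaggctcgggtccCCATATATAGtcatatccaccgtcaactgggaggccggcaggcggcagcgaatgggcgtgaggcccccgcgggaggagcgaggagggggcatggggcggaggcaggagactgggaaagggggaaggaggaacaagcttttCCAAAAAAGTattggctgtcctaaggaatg
Cnn2: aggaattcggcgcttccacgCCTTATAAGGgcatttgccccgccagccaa
Srf: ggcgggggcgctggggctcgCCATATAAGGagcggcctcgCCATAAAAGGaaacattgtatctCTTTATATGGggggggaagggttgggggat
Actg1: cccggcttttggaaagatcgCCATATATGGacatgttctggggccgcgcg
The 2 sites of Acta2 and the 2 of Tpm1 each carry 1 mismatch, while the site of Cnn2, 2 of the 3 sites of Srf and the site of Actg1 are exact. A match of letters is a description of the window and not a bound site.

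The libraries differed by replicate number as well as by genotype. Kcnh2 itself was at 2.61 and 1.45 RPKM in replicates 1 and 2 of WT and at 0.108 and 0.504 RPKM in replicates 1 and 2 of Kcnh2-/-. RPKM sums were 7.95e+07 and 1.09e+08 in the replicate 1 libraries and 1.17e+07 and 8.93e+06 in the replicate 2 libraries. Sums over protein-coding genes alone did not follow the number, at 1.02e+06 and 7.12e+05 in the WT pair and 5.88e+05 and 8.65e+05 in the Kcnh2-/- pair. The median of the tested protein-coding genes ran from 11.9 to 13.2 RPKM. The labels name no batch, so differences within each number are printed beside the pooled ones. Pluripotency genes followed the number too, with a summed level of 340 and 1570 RPKM in replicates 1 and 2 of WT and 1203 and 2258 RPKM in the matching Kcnh2-/- libraries. Of 7 such genes tested limma called 0, with 0 at an unadjusted p under 0.05 and a median log2 difference of 0.76. Pou5f1, which encodes OCT4, was at 273 and 1203 RPKM in the WT pair and 1043 and 1679 in the Kcnh2-/- pair, and Klf2, a naive pluripotency factor, was at 1.83 and 13.9 against 9.27 and 31.7. Sox2 followed the number as well, but between genotypes it lay the other way, at 33.9 and 47.8 against 18.1 and 43.8. Tfcp2l1 was at 0.800 and 21.2 against 2.12 and 8.25. The part of these genes in the differences below was not tested. In such bulk samples, fewer cells of a type and less RNA per cell cannot be told apart. Absolute read depth is unknown.

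Most of the contractile genes stood lower in Kcnh2-/- than in WT, but none passed the test. The median difference in log2(RPKM + 1) over the 8 tested genes was -0.99, against 0.00524 over all 12355 genes tested. It was -1.34 between the replicate 1 libraries and -0.50 between those of replicate 2. Of the 8, 7 were lower in Kcnh2-/- within both replicate numbers, as were 28.1% of all genes tested, and 0 were higher within both. With the numbers set aside, 2 of the 8 (Cnn1 and Myl9) had both Kcnh2-/- libraries below both WT libraries, against 15.3% of all genes tested, and 0 had both above, against 16.7%. Limma called 0 of the 8 after Benjamini-Hochberg adjustment (adjusted p = 0.980 for each), and 0 were at an unadjusted p under 0.05. Over all genes it called 14 (0.113%), and 3.38% were at an unadjusted p under 0.05. An exact permutation test of 2 libraries against 2 cannot go below p = 0.333. Without WT replicate 1 the median difference of the 8 was 0.0421.

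**Figure D1:**
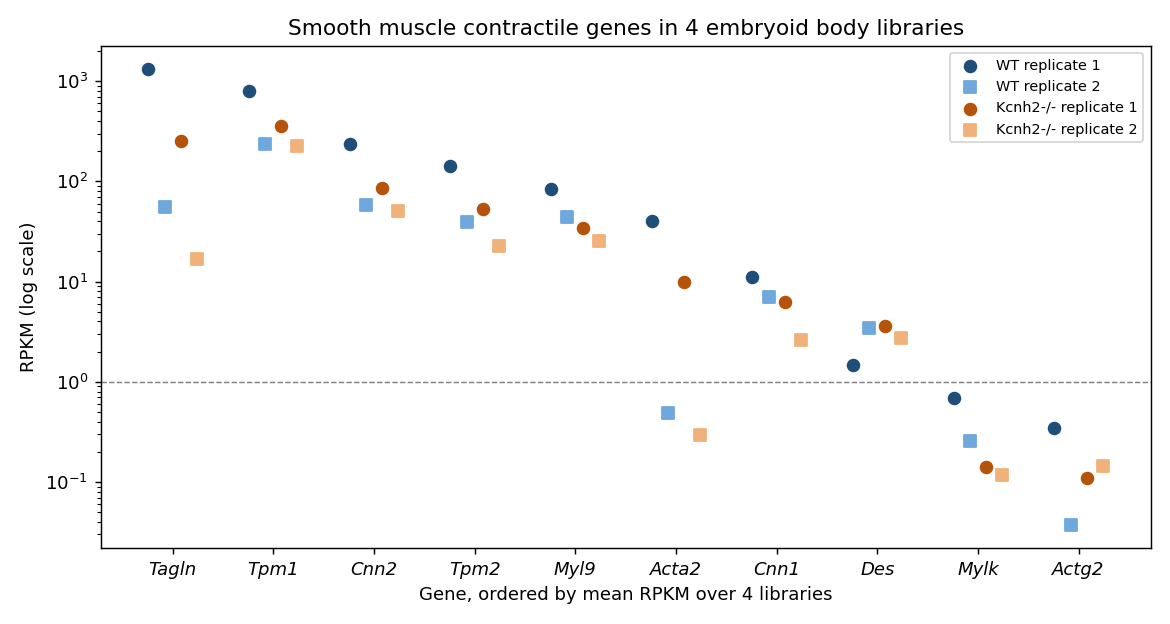
RPKM on a log axis for each of the 10 genes, ordered by mean level, with 1 point for each library and a dashed line at 1 RPKM. WT replicate 1 is the highest library for 9 of the genes, the exception being Des, and Acta2 and Tagln spread the most.

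The spread between replicates of one genotype was wider than the gap between genotypes for the most variable genes. Over the 8 tested genes the median of replicate 2 minus replicate 1, in log2(RPKM + 1), was -1.79 in WT and -0.87 in Kcnh2-/-. The median over all genes tested was 0.0710 and 0.0865. The summed level of all 10 genes was 2635 and 442 RPKM in replicates 1 and 2 of WT and 805 and 348 RPKM in replicates 1 and 2 of Kcnh2-/-. Replicate 1 was thus higher than replicate 2 in both genotypes, and WT was higher than Kcnh2-/- within each number.

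Among the actins, Acta2 (smooth muscle alpha-actin, rn6 chromosome 1, 252537614 to 252550394) was seen in the replicate 1 libraries and near absent in the others. It was at 40.6 RPKM in WT replicate 1 and 0.491 in WT replicate 2, and at 9.85 RPKM in Kcnh2-/- replicate 1 and 0.296 in Kcnh2-/- replicate 2. The groups overlap, since Kcnh2-/- replicate 1 lies above WT replicate 2. The difference in log2(RPKM + 1) was -1.07 ± 1.91 (SE; limma adjusted p = 0.980), with -1.94 within replicate 1 and -0.20 within replicate 2. Without WT replicate 1 the difference was 1.33, and without Kcnh2-/- replicate 2 it was 0.46. Actg2 (enteric smooth muscle gamma-actin, chromosome 4, 115215059 to 115239723) stayed under 1 RPKM in every library. It was at 0.348 and 0.0369 RPKM in replicates 1 and 2 of WT and at 0.109 and 0.144 in the Kcnh2-/- libraries, with overlapping groups, and was not tested. Actin genes are near-identical in their coding parts, and how reads common to them were divided is not shown in the files.

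Tagln, which encodes the actin cross-linking protein transgelin (SM22-alpha), had the largest difference of the 8 tested (chromosome 8, 50222895 to 50246656). It was at 1329 and 54.9 RPKM in replicates 1 and 2 of WT and at 255 and 16.7 RPKM in replicates 1 and 2 of Kcnh2-/-. WT was 5.21 times Kcnh2-/- within replicate 1 and 3.29 times within replicate 2. Between replicates of one genotype the ratio was larger, 24.2 in WT and 15.3 in Kcnh2-/-, and the groups overlap. The log2 difference was -2.02 ± 2.00 (SE, limma adjusted p = 0.980). With the replicate number as a term and protein-coding genes alone, limma called it (adjusted p = 0.0137), and over all genes with that term it did not (0.130). Without WT replicate 1 the difference was 0.27, and without Kcnh2-/- replicate 2 it was -0.0906. Sidt2, a lysosomal membrane protein gene, shares the locus given for Tagln in the files and was at 17.9, 20.5, 12.2 and 15.8 RPKM in replicates 1 and 2 of WT and Kcnh2-/- replicates 1 and 2.

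The calponins restrain actin-activated myosin. Cnn1, the smooth muscle form (chromosome 8, 23113047 to 23121761), was at 11.2 and 7.04 RPKM in the WT pair and 6.22 and 2.63 RPKM in the Kcnh2-/- pair. Both Kcnh2-/- libraries lie below both WT libraries. The log2 difference was -0.95 ± 0.48 (SE, limma adjusted p = 0.980), with -0.76 and -1.15 within replicates 1 and 2, and Cnn1 was the only tested gene of the 10 that differed more within replicate 2. It was -0.46 without Kcnh2-/- replicate 2 and -1.45 without Kcnh2-/- replicate 1. Cnn2, a calponin found in many cell types, was at 236 and 58.1 RPKM in the WT pair and 85.6 and 50.6 RPKM in the Kcnh2-/- pair. WT replicate 1 stands apart, and the other 3 libraries lie close together. Its log2 difference was -0.82 ± 0.74 (limma adjusted p = 0.980), with -1.45 and -0.20 within replicates, and it was 0.18 without WT replicate 1. The locus given for Cnn2 (chromosome 7, 12541055 to 12793635) spans a bundle of 20 genes.

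The tropomyosin genes, whose products lie along the actin filament, were among the most abundant of the 10. Tpm1 (chromosome 8, 72814739 to 72842228) was at 790 and 235 RPKM in the WT pair and 357 and 227 RPKM in the Kcnh2-/- pair. It was the highest of the 10 in every library but WT replicate 1, where Tagln was higher. The log2 difference of Tpm1 was -0.60 ± 0.67 (SE, limma adjusted p = 0.980), with -1.14 within replicate 1 and -0.0487 within replicate 2, and it was 0.28 without WT replicate 1. Tpm2 (chromosome 5, 59016621 to 59025631) was at 142 and 39.3 RPKM in the WT pair and 53.1 and 22.6 RPKM in the Kcnh2-/- pair. The groups overlap for both genes, through Kcnh2-/- replicate 1. For Tpm2 the log2 difference was -1.09 ± 0.76 (limma adjusted p = 0.980), -1.41 and -0.77 within replicates, and it was -0.17 without WT replicate 1.

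On the myosin side, Myl9 and its kinase differed widely in level. Myl9, the regulatory light chain of smooth muscle and non-muscle myosin (chromosome 3, 152857591 to 152863960), was at 83.8 and 43.9 RPKM in the WT pair and 34.0 and 25.4 RPKM in the Kcnh2-/- pair. Its groups do not overlap. The log2 difference was -1.02 ± 0.40 (SE, limma adjusted p = 0.980), with -1.28 and -0.77 within replicates, and its unadjusted p of 0.0574 was the smallest of the 8. With any 1 library left out it ran from -1.48 to -0.56. Mylk, the kinase that phosphorylates it (chromosome 11, 69013049 to 69223158), was under 1 RPKM in every library, at 0.692 and 0.258 in the WT pair and 0.141 and 0.118 in the Kcnh2-/- pair. These low values do not overlap between genotypes, and Mylk was not tested.

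Des, which encodes desmin, the muscle intermediate filament protein (chromosome 9, 82556572 to 82564294), did not follow the other genes. It was at 1.46 and 3.46 RPKM in the WT pair and 3.64 and 2.76 RPKM in the Kcnh2-/- pair. WT replicate 1, the highest library for the other 9 genes, is the lowest here, and the groups overlap. The log2 difference was 0.34 ± 0.44 (SE, limma adjusted p = 0.980), of opposite sign within replicates 1 and 2 (0.92 and -0.24), and it was -0.0928 without WT replicate 1.

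**Figure D2:**
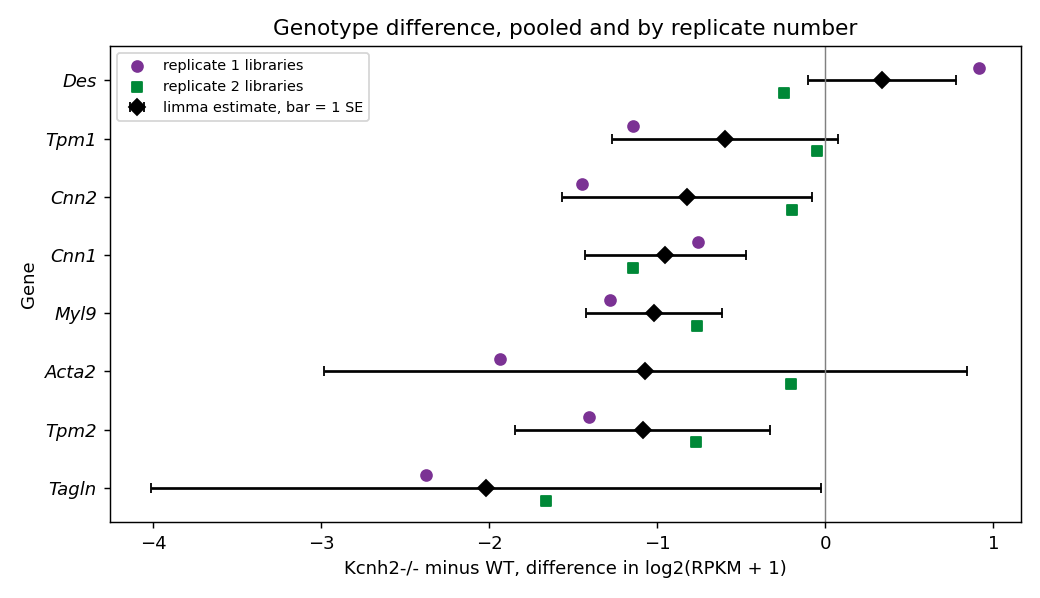
Difference between Kcnh2-/- and WT in log2(RPKM + 1) for the 8 tested genes, with the limma estimate (diamond, bar of 1 SE) and the values within replicate 1 (circles) and replicate 2 (squares). Every gene but Des lies below 0 within both numbers, and for Tpm1, Cnn2 and Acta2 the replicate 2 value lies near 0.

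In level, the 10 genes kept nearly the same order across libraries. Tagln, Tpm1, Cnn2, Tpm2 and Myl9 filled ranks 1 to 5 in every library, and Mylk and Actg2 filled the last 2 ranks. Tagln ranged most, from first of the 10 in WT replicate 1 to rank 5 in Kcnh2-/- replicate 2. Acta2 was the sixth in both replicate 1 libraries and the eighth, below Cnn1 and Des, in both replicate 2 libraries. The means over 4 libraries of Tagln and Tpm1, at 414 and 402 RPKM, differ by less than their spread. Other neighbours stood further apart: Tpm1 lay above Cnn2 (mean 107 RPKM) in every library, and so did Des above Mylk.

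SRF was present in all libraries at similar levels, while myocardin was nearly absent. Srf was at 36.2 and 23.6 RPKM in the WT pair and 31.3 and 30.1 in the Kcnh2-/- pair (log2 difference 0.0682 ± 0.31, SE, limma adjusted p = 0.987). Myocd was at 0.0986 RPKM in WT replicate 1 and listed at 0 in the other 3 libraries. Of the 7 genes of this list that were tested, limma called 0, and 0 were at an unadjusted p under 0.05. Their median log2 difference was -0.38. Mkl1 (Mrtfa), a myocardin-related factor, was at 1.99 and 4.36 RPKM in the WT pair and 2.03 and 2.13 in the Kcnh2-/- pair. Among the LIM-domain cofactors, Fhl2 was at 35.1 and 2.59 RPKM in the WT pair and 11.3 and 0.425 in the Kcnh2-/- pair, the order of libraries seen for Tagln. Fhl1, an X-linked gene, was at 27.7 and 8.68 RPKM in the WT pair and 8.04 and 7.82 in the Kcnh2-/- pair (adjusted p = 0.980). Of the ternary complex factors, Elk3 was at 4.91 and 0.700 RPKM in the WT pair and 2.91 and 0.449 in the Kcnh2-/- pair. Elk4 was lower in Kcnh2-/- without overlap (5.67 and 7.88 against 5.64 and 4.48), but its replicate 1 values nearly tie. The X-linked Elk1 was higher (5.37 and 5.52 against 6.87 and 7.15). Of the 7 tested, 2 (Elk4 and Fhl1) were lower and 1 (Elk1) higher without overlap, against 15.3% and 16.7% of all genes tested.

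Other smooth muscle contractile genes had a smaller median difference. Of the 15 tested, limma called 0, with 0 at an unadjusted p under 0.05. The median log2 difference was -0.54, with -0.73 and -0.21 within replicates 1 and 2. Without overlap, 4 were lower and 2 higher in Kcnh2-/-, where 15.3% and 16.7% of all genes tested were. Nexn, an actin-binding protein of the muscle filament, was at 4.27 and 1.46 RPKM in the WT pair and 1.26 and 0.662 in the Kcnh2-/- pair (log2 difference -0.89 ± 0.52, adjusted p = 0.980). Myl6, the essential myosin light chain shared with non-muscle cells, was the most abundant, at 1405 and 869 RPKM in the WT pair and 718 and 1160 in the Kcnh2-/- pair. The defining markers of mature smooth muscle were low: Myh11, the smooth muscle myosin heavy chain, was at 1.02 and 1.13 RPKM in the WT pair and 1.91 and 1.68 in the Kcnh2-/- pair. Lmod1, which nucleates actin in smooth muscle, was at 2.74 and 0.129 RPKM in the WT pair and 0.393 and 0.0482 in the Kcnh2-/- pair, and Smtn (smoothelin) was at 8.53 and 3.90 against 4.91 and 2.67. With Myh11, Mylk, Actg2 and Myocd at these levels, the name smooth muscle stands here for the genes and not for a cell type.

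SRF targets outside the muscle programme had medians nearer to 0. The 22 tested cytoskeletal SRF targets had a median log2 difference of -0.31 (-0.53 and 0.13 within replicates 1 and 2). Limma called 0 of the 22, with 2 at an unadjusted p under 0.05, where 3.38% of all genes were. Without overlap, 4 were lower and 2 higher, near the shares over all genes (15.3% and 16.7%). Actb, the cytoplasmic beta-actin and the most abundant of them, was at 2328 and 1883 RPKM in the WT pair and 1873 and 2135 in the Kcnh2-/- pair. Actn4, a non-muscle alpha-actinin, was at 62.8 and 79.3 RPKM in the WT pair and 39.6 and 41.7 in the Kcnh2-/- pair (log2 difference -0.78 ± 0.26, SE, limma adjusted p = 0.980). Of the immediate early SRF targets 4 were tested, with a median of -0.0596 and 0 called. The nuclear receptor gene Nr4a1 was at 1.81 and 1.47 RPKM in the WT pair and 0.292 and 0.315 in the Kcnh2-/- pair (adjusted p = 0.980), and Junb was at 39.6 and 27.2 against 42.9 and 39.8. Egr1, Egr2, Egr3, Egr4 and Fosb were under 1 RPKM in all 4 libraries. The difference between these lists and the contractile genes was not tested.

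**Figure D3:**
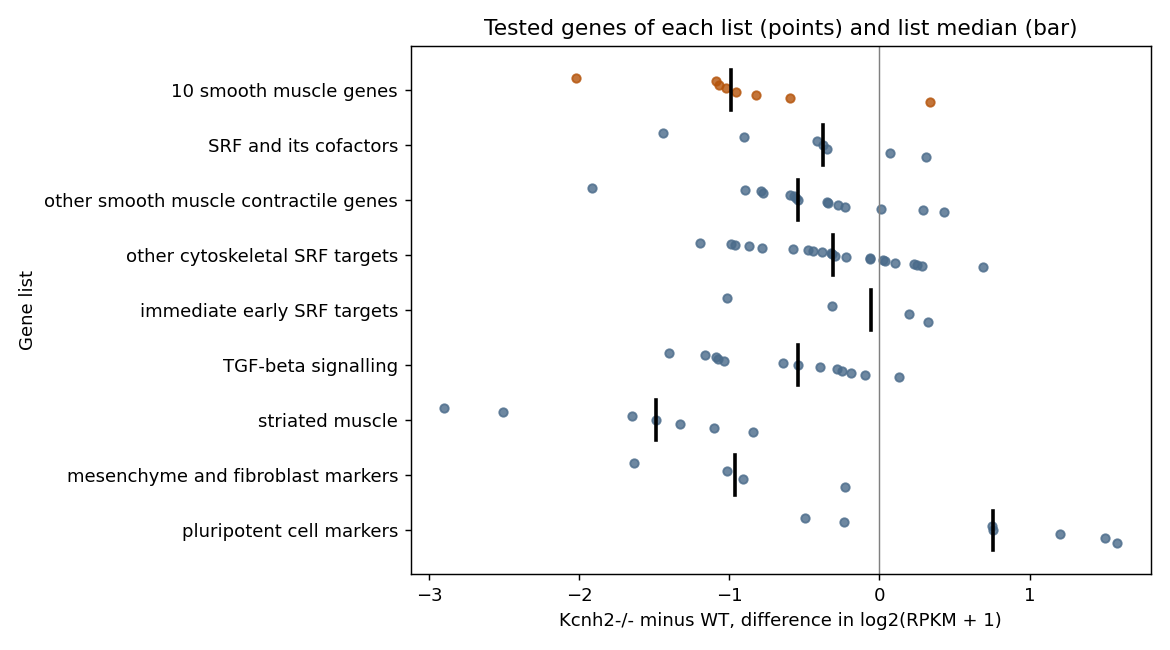
Differences between Kcnh2-/- and WT in log2(RPKM + 1) for tested genes, 1 point a gene and a black bar at the median, by list. The bar of the contractile genes stands at -0.99, close to that of mesenchyme (-0.96, 4 genes) and above that of striated muscle (-1.49). It is below those of the other SRF lists (-0.38 to -0.0596). Not every list is drawn. Among those left out, the endoderm and epithelial list had a median of -1.23 over 9 genes and the endothelial list 0.22 over 2.

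TGF-beta signalling acts upstream of smooth muscle genes. Over 13 tested genes of TGF-beta signalling and related regulators of smooth muscle genes the median was -0.54, with 0 called by limma. At an unadjusted p under 0.05 there were 2, where 3.38% of all genes tested were. Without overlap, 4 were lower and 0 higher in Kcnh2-/-, against 15.3% and 16.7% of all genes. Notch3, a receptor of vascular smooth muscle, was at 8.36 and 14.5 RPKM in the WT pair and 3.98 and 5.44 in the Kcnh2-/- pair (log2 difference -1.09 ± 0.39, adjusted p = 0.980). Smad2, a transducer of TGF-beta and Nodal signals, was at 45.2 and 29.2 against 32.2 and 28.5.

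Several genes of striated muscle and mesenchyme, which also express parts of the contractile set, had the order of libraries seen for Tagln. The striated muscle list summed to 1086 and 75.8 RPKM in replicates 1 and 2 of WT and to 184 and 23.6 RPKM in replicates 1 and 2 of Kcnh2-/-. Of its 23 genes 7 were tested, with a median log2 difference of -1.49 and 0 called by limma. At an unadjusted p under 0.05 there was 1, where 3.38% of all genes tested were. Without overlap, 1 was lower (Nebl) and 0 higher, against 15.3% and 16.7% of all genes tested. Acta1, skeletal alpha-actin, was at 325 and 25.0 RPKM in the WT pair and 88.7 and 8.61 in the Kcnh2-/- pair. Nebl, a sarcomeric Z-disc gene, had another order, at 4.23 and 2.43 against 1.26 and 0.731. In this list 9 genes, among them Nkx2-5, Tbx5, Myh6, Myod1 and Myog, were under 1 RPKM in all libraries. Mesenchyme and fibroblast markers summed to 185 and 6.31 RPKM in the WT pair and 35.2 and 3.25 in the Kcnh2-/- pair, most of it from the intermediate filament gene Vim at 153 and 3.60 against 24.8 and 1.85. Of its 11 genes 4 were tested (median -0.96, 0 called, 0 at an unadjusted p under 0.05), and Pdgfrb, Thy1, Prrx1 and Lum stayed under 1 RPKM. Pdgfra, a receptor of early mesoderm, was at 5.28 and 0.861 RPKM against 1.87 and 0.157. Endothelial markers summed to 25.7 and 4.69 RPKM in the WT pair and 5.80 and 8.73 in the Kcnh2-/- pair, with 2 tested and 0 called, Flt1 (7.11 and 3.61 against 4.43 and 5.17) and Tie1 (1.39 and 0.556 against 0.812 and 3.17). The defining endothelial genes Kdr, Tek, Cdh5 and Emcn passed 1 RPKM in WT replicate 1 alone, at 3.93, 6.19, 1.66 and 5.28 RPKM. Endoderm and epithelial markers summed to 2320 and 855 RPKM in the WT pair and 1237 and 737 in the Kcnh2-/- pair. Krt8, at 1567 and 175 against 531 and 53.1, was the highest of them in the replicate 1 libraries, and Epcam in those of replicate 2. Sox17, an endoderm factor, was at 20.8 and 5.15 against 4.96 and 1.32. Of these markers 9 were tested, with a median of -1.23 and 0 called. Without overlap, 1 was lower (Sox17) and 1 higher (Epcam, at 171 and 234 against 272 and 263), where 15.3% and 16.7% of all genes tested were. Krt18 and Krt19 had log2 differences of -0.0823 and 0.0772. The part of any of these cell types in the contractile gene differences was not tested.

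The contractile genes formed a changing share of their families. This set of families was chosen after the values were seen. Of the summed RPKM of 6 actin genes, Acta1, Actc1, Acta2 and Actg2 together made up 15.0% and 1.69% in replicates 1 and 2 of WT and 4.17% and 0.426% in the matching Kcnh2-/- libraries. Acta2 alone was 0.902% and 0.0170% in WT and 0.302% and 0.00887% in Kcnh2-/-. In each library the striated forms Acta1 and Actc1 were above the smooth muscle forms, and the cytoplasmic actins held the rest. Tagln was 85.8% and 32.4% of the transgelin total in WT and 65.9% and 14.6% in Kcnh2-/-, with nearly all of the rest from Tagln2, the form found in many cell types. Tagln2 itself was at 221 and 114 RPKM in the WT pair and 132 and 97.3 RPKM in the Kcnh2-/- pair, and Tagln3 was listed at 0. The more widely expressed Cnn3 was 55.8% and 76.0% of the calponin total in WT and 73.8% and 82.5% in Kcnh2-/-. Tpm1 and Tpm2 together were 48.7% and 33.6% of the tropomyosin total in WT and 39.6% and 32.6% in Kcnh2-/-, while Tpm3 was 14.2% and 27.3% against 27.5% and 41.4%. The share was taken in these 4 families over Acta1, Actc1, Acta2 and Actg2, over Tagln, over Cnn1 and Cnn2, and over Tpm1 and Tpm2. It was higher in replicate 1 of each genotype and higher in WT within each number. Kcnh2-/- replicate 1 lay above WT replicate 2 in each, so the groups overlap. Single genes could differ: Cnn1 alone was 2.01% and 2.59% in WT and 1.77% and 0.863% in Kcnh2-/-, without overlap. Tpm1 alone was 28.8% in WT replicate 2 and 29.7% in Kcnh2-/- replicate 2. Myl9 was 8.79% and 10.0% of the regulatory light chain total in WT and 5.72% and 4.82% in Kcnh2-/-, without overlap.

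**Figure D4:**
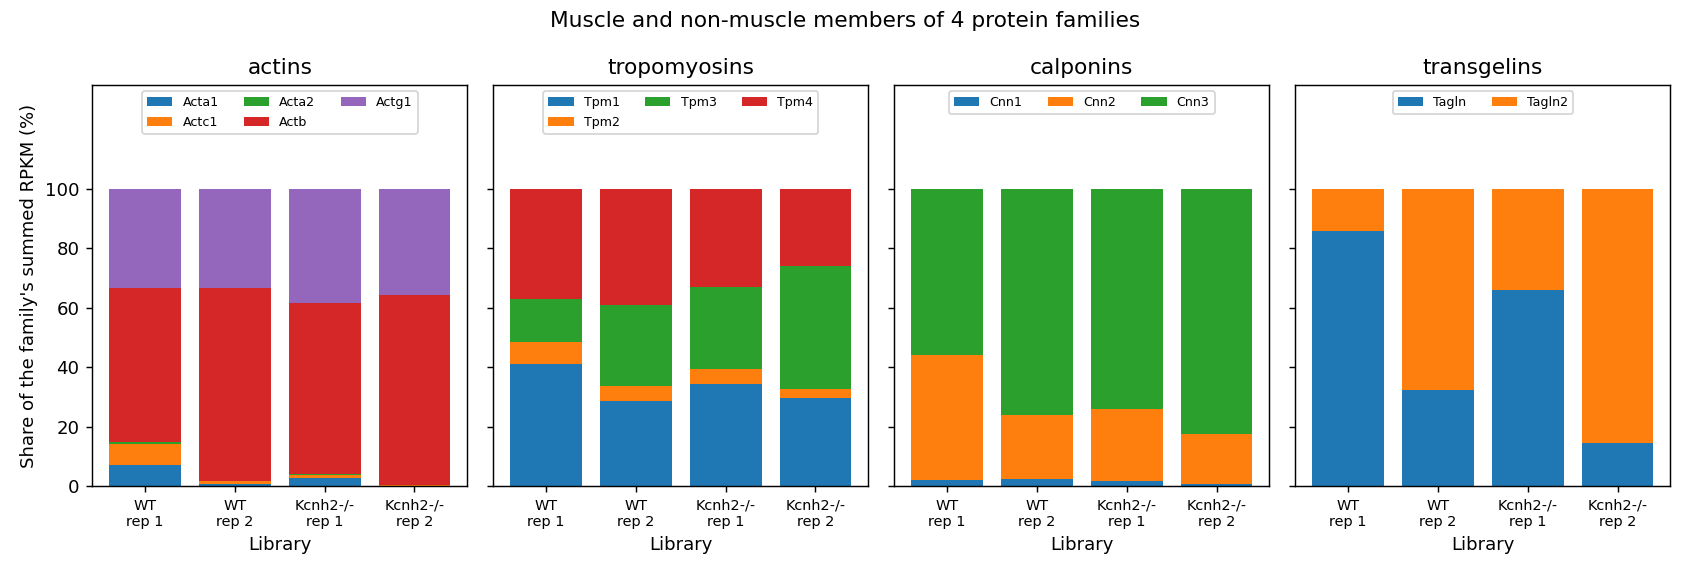
Stacked bars show each gene's percentage of its family's summed RPKM in each of the 4 libraries, for actins, tropomyosins, calponins and transgelins. Tagln takes 85.8% of the transgelin bar in WT replicate 1 and 14.6% in Kcnh2-/- replicate 2, and the muscle actins are a thin band in every library but WT replicate 1.

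Genes of the most similar profile were sought among 8002 protein-coding genes whose mean was not under 5 RPKM, by Euclidean distance of centred log2(RPKM + 1) over the 4 libraries from the median profile of the 8 tested genes. Near it lay Tmtc4 (distance 0.109), Mpp5 (0.117), a cell polarity scaffold, Eps8l2 (0.155), Flywch2 (0.159), the lactate transporter gene Slc16a1 (0.170), Trib2 (0.175) and RGD1563986 (0.179). Slc16a1 was at 609 and 196 RPKM in the WT pair and 299 and 153 in the Kcnh2-/- pair. Of the contractile genes Cnn2 ranked the nearest, at place 11, followed by Tpm1 at 28 and Tpm2 at 43. Tagln and Acta2, whose values spread more than the median profile, ranked 7703 and 7329. With 4 libraries the likeness describes these samples only.

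Exact CArG boxes were found in the promoter windows of several other genes on the lists. Of 7 genes of the SRF list with a window, 3 (Srf, Fhl1 and Fhl2) had an exact box, as had 4 of 19 striated muscle genes (Acta1, Actc1, Myl3 and Nebl), 2 of 22 cytoskeletal targets (Actg1 and Fblim1) and 2 of 7 immediate early genes (Egr1 and Egr2). Ldb3, of the contractile list, and Tfcp2l1, a pluripotency factor, also had one. Of these 13 genes 10 were tested, and their differences in log2(RPKM + 1) ran from -2.51 to 0.0682 with a median of -1.03, 8 of them below 0. The members of the striated muscle list account for 4 of the 10, and none of the 10 passed the test. The median over all genes tested was 0.00524. These 13 genes come from lists chosen with earlier results of these data known, and the striated muscle list itself had a median of -1.49. A link between the box and the level was not tested. Actg1, whose box is printed above, was at 1497 and 963 RPKM in the WT pair and 1255 and 1182 in the Kcnh2-/- pair (log2 difference 0.0212 ± 0.42, SE, limma adjusted p = 0.998). Actc1, cardiac alpha-actin, was at 310 and 23.5 RPKM in the WT pair and 37.3 and 5.14 in the Kcnh2-/- pair (-2.51 ± 1.52, adjusted p = 0.980).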

How the data were processed

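RNA depleted of ribosomal RNA was sequenced from 4 libraries, per the labels' protocols, with a strand-marking kit. The authors deposited RPKM per gene, 1 table for each library, per the file headers. TopHat2 2.0.13, Cufflinks 2.2.1 and the build rn6 are listed in the submitters' processing notes; which annotation was used is not stated in the labels. Loci are printed as the files give them. The test was limma (version 3.58.1, R 4.3.3; two-sided, lmFit and eBayes with trend), applied to log2(RPKM + 1) of the 12355 genes that reached 1 RPKM in 2 or more libraries, Benjamini-Hochberg adjusted, with a threshold of 0.05. This scale understates the change of low genes. The fit was tested on simulated data. Protein-coding genes came from a RefSeq table (GRCr8, names only), which matched 19341 of 32753 genes. The members and lists were chosen with earlier results of these data known. All 10 members are named, and from each other list the tested genes of smallest p and highest mean, all genes of the SRF list, and the genes nearest in profile. A gene and a list are not reported here. Other genes were named after their values were seen. Relative depth was examined over genes under 0.08 RPKM, where the commonest ratio of WT to Kcnh2-/- was 0.96 for replicate 1 and 1.03 for replicate 2. Tables were made in Python 3.11.15 with numpy 2.4.6 and pandas 2.3.3, and plots with matplotlib 3.10.9.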

Additional observations from a re-analysis of the deposited data

How the results depend on the processing

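The median difference of the contractile genes stayed below 0 under each change of pseudocount, filter, scaling, variance model and gene set, from -1.07 (pseudocount 0.1) to -0.82 (pseudocount 5), and was -0.99 over the 6 tested genes with a locus of their own, a setting chosen after seeing the data. Leaving out 1 library each moved it from -1.65 to 0.0421, the latter without WT replicate 1, and moved the number of genes lower without overlap from 2 to 7. It was 7 without WT replicate 2 or without Kcnh2-/- replicate 1, where 35.3% and 28.3% of all genes were lower without overlap, against 15.3% with all libraries. It stayed at 2 without WT replicate 1 or without Kcnh2-/- replicate 2, where the shares over all genes were 35.2% and 28.3%. Single-gene differences then ran from -4.30 to 0.27 for Tagln, -3.47 to 1.33 for Acta2, -1.45 to -0.46 for Cnn1, -1.82 to 0.18 for Cnn2, -1.47 to 0.28 for Tpm1 and -0.0928 to 0.76 for Des. The lone library left in a group is assumed to vary like the other group. Over all genes, limma called 14 in the reported fit, 3 with a pseudocount of 5, 1 with no filter, 3 over protein-coding genes alone and 3 without the variance trend. With the replicate number as a block it called 28 over all genes and 81 over protein-coding genes, of which 57 were higher. Tagln was the only contractile gene called under the block, over protein-coding genes. Same-numbered libraries deviated together (correlation across genes 0.38 over all tested genes and 0.58 over protein-coding ones), but with 2 numbers this does not show that they were paired. The causes of these shifts were not tested. Absolute depth is unknown, so the counting error of low genes such as Mylk and Actg2 cannot be given.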

Other observations

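Among intermediate filament genes, Des and Vim, which encode the related filament proteins desmin and vimentin, went apart in WT replicate 1. Vim was at its highest there and Des at its lowest, while the remaining libraries stood in the same order for both genes. Vim was 99.1% and 51.0% of their summed RPKM in replicates 1 and 2 of WT and 87.2% and 40.1% in replicates 1 and 2 of Kcnh2-/-. Desmin RNA thus made up 0.946% of the pair in the library where Tagln, Acta2 and Tpm1 were at their highest. Further actin-associated genes differed widely without passing the test: Pdlim3, a LIM protein of actin filaments, was at 119 and 9.18 RPKM in the WT pair and 17.4 and 3.66 in the Kcnh2-/- pair (log2 difference -1.92 ± 1.37, SE, limma adjusted p = 0.980), and caldesmon (Cald1) was at 205 and 23.3 against 50.9 and 31.2. Fblim1, a filamin-binding focal adhesion gene with an exact CArG box in its promoter window, was at 6.99 and 8.50 RPKM in the WT pair and 3.88 and 3.10 in the Kcnh2-/- pair (-0.96 ± 0.32, adjusted p = 0.980), without overlap. These genes were chosen after their values were seen.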
